A study of Mus musculus with 6 samples.

Results

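The integrated stress response and the unfolded protein response were followed through 32 genes in mouse embryonic stem cells with and without knockdown of Tdg, the gene of thymine DNA glycosylase. The genes were taken as a named list of both pathways, drawn up with earlier results of these data known, and each was read from the single-gene probe set with the highest mean over the 6 arrays. All 32 were measured, out of 19938 named genes in the table. By role, 20 belong to the integrated stress response and 12 to the unfolded protein response of the endoplasmic reticulum (ER).

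RNA was compared on Affymetrix whole-transcript arrays between 3 control arrays and 3 Tdg knockdown arrays. Both groups were E14 cells, an established embryonic stem cell line, grown without feeder cells on plates coated with 0.1% gelatin, in 15% serum with leukemia inhibitory factor (LIF) at 1000 units/ml. Vectors were delivered by lentivirus (multiplicity of infection 10), and selection with 2 ug/ml puromycin began after 48 h. The protocol is given once for all samples, and the sources used here do not give the content of the control vector, the sequence that targeted Tdg or the time of RNA extraction. Whether each array had its own culture is not labelled. The p-values therefore reflect array-to-array spread alone, and this may be technical. In such bulk samples fewer cells of a type and less RNA per cell cannot be told apart.

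The integrated stress response is set off when kinases that sense amino acid shortage, ER stress, viral RNA or lack of heme phosphorylate the translation factor eIF2. Most protein synthesis is then slowed, while the mRNA of the transcription factor ATF4 is translated more, and ATF4 raises genes for amino acid uptake and synthesis together with genes that end the response. The unfolded protein response starts at sensors in the ER membrane and works through XBP1, ATF6 and, by way of the kinase PERK, ATF4. It raises chaperones, folding enzymes and the machinery that degrades misfolded proteins. ATF4 and XBP1 are set largely by translation and by splicing of their mRNA, which the signal of a whole gene does not show.

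Tdg signal, the mean of 4 probe sets that the annotation shares between Tdg and the pseudogene Tdg-ps2, was 11.12, 11.20 and 11.10 on the control arrays and 8.24, 8.16 and 7.93 on the knockdown arrays (log2 signal). It fell by 3.03 on the log2 scale (SE 0.09, limma adjusted p 8.79e-05), and an exact permutation test gave p = 0.1, the smallest that 3 arrays against 3 allow. One protocol text speaks of Kdm2b knockdown, and Kdm2b differed by 0.10 (SE 0.08, limma adjusted p 0.694). Knockdown replicate 3 lay apart on the first principal component, which held 58.6% of the variance, at 31.0 against -17.5 to 5.2 for the other 5 arrays. Without that array the median of all named genes moved from 0.02 to -0.005, and 9615 of the 19938 genes lay above 0 instead of 11053. Differences and medians that it moves by more than 1.5 times are given without it as well. All 12 stem cell markers, among them Pou5f1, Nanog and Sox2, were measured, and their mean log2 signal was 12.2 to 12.3 on every array. The 12 fibroblast markers had a mean of 6.63 to 6.83 in controls and 6.60 to 6.97 in knockdown, highest on knockdown replicate 3. The 8 primitive endoderm markers had 7.67 to 7.75 against 7.63 to 7.78, and the 8 trophoblast markers 8.30 to 8.43 against 8.24 to 8.38. None of these markers passed the threshold. With the replicate block Lamb1 of the endoderm list and Krt8 and Krt18 of the trophoblast list passed as lower, where 3.08% of all genes passed. Other genes of these lists went the other way: 4 of 8 endoderm and 3 of 8 trophoblast markers lay above 0. Among them were Hand1 of the trophoblast list at 0.32 (limma adjusted p 0.311) and Foxa2 of the endoderm list at 0.15 (0.460). The part of these markers in the values below was not tested.

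Promoter sequences show which of the 32 genes carry known stress response elements near their start. RefSeq windows on assembly GRCm38.p6, from 250 bases before to 50 bases after a gene's start, were found for 28 members in 31 windows. The ER stress response element (ERSE), bound by ATF6 together with the CCAAT-binding factor NF-Y, was searched on both strands as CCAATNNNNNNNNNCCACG. It was present in 5 of the 31 member windows and in 0.119% of all 32851 windows. The stretches below are printed to show which ER genes hold that element and where, with the element in capitals. Each runs 5′ to 3′ on the strand of its gene, and an element on the opposite strand appears as its reverse complement. They lie at chr2:34772005-34772063 (plus strand) for Hspa5, chr10:86705513-86705676 (minus) for Hsp90b1, chr8:84847055-84847113 (minus) for Calr, chr15:88819500-88819558 (plus) for Creld2 and chr19:6046512-6046570 (plus) for Syvn1.
Hspa5: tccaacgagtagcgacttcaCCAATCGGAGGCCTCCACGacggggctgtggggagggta
Hsp90b1: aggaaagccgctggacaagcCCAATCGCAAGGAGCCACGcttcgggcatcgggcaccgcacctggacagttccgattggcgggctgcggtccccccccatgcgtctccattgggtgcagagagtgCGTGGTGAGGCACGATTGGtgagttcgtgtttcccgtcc
Calr: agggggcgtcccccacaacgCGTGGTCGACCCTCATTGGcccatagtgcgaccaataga
Creld2: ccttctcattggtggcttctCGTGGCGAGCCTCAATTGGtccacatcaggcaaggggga
Syvn1: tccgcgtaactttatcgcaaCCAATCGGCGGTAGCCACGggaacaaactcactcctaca

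The element of ATF4 and its partners, called CARE, was searched as TGATGNAA and was present in 9 of the 31 member windows against 3.97% of all windows. These were windows of Atf3, Trib3, Chac1, Nupr1, Asns, Pck2, Slc7a11, Vldlr and Herpud1. The cAMP response element, TGACGTCA, was searched after the values were seen. It was present in 1 member window, that of Ppp1r15a, and in 1.79% of all windows. The UPR element TGACGTGG was in none of the member windows and in 0.676% of all windows. The CCAAT box, which ERSE contains, was in 21 of the 31 member windows and in 37.4% of all windows. The stretches of the 2 members with the smallest p and of 3 further ATF4 targets are printed with the element in capitals, at chr7:45526269-45526300 (minus) for Ppp1r15a, chr14:55540143-55540190 (plus) for Pck2, chr2:119351029-119351076 (plus) for Chac1, chr6:7693210-7693252 (minus) for Asns and chr7:126625553-126625600 (minus) for Nupr1. A match describes letters and does not show that a factor binds there.
Ppp1r15a: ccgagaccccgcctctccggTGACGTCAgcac
Pck2: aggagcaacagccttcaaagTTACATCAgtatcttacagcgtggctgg
Chac1: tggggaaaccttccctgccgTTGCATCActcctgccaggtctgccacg
Asns: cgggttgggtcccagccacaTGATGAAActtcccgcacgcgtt
Nupr1: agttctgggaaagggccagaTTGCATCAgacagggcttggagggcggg

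None of the 32 genes passed the threshold of 0.05 in limma after adjustment over all named genes, where 0.792% of genes passed. The log2 fold changes, knockdown minus control, ran from -0.30 for Pck2 to 0.31 for Ppp1r15a, that is from 0.81-fold to 1.24-fold. The median was 0.02, against 0.02 over all named genes, and 17 members lay within 0.1 of 0. The 95% intervals of the 32 differences lay between -0.47 and 0.48, or 0.72-fold to 1.39-fold, so none reached a 1.5-fold difference in either direction. At an unadjusted p under 0.05 there were 10 members, or 31.2%, against 12.5% of all named genes. Of these, 6 were higher and 4 lower in knockdown, against 5.03% and 7.48% of all genes. The members were brighter, with a mean log2 signal of 10.15 to 10.23 per array against 7.98 to 8.04 for all named genes. The shares of all genes given here and below are therefore not matched for signal, and shares among genes of like signal were not computed.

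The knockdown and control arrays did not overlap for 11 members, or 34.4%, against 19% of all named genes. Knockdown was the higher group for 6 of them (7.98% of all genes) and the lower for 5 (11% of all genes). The higher ones were Ppp1r15a, Atf5, Nupr1, Xbp1, Hspa5 and Creld2, and the lower ones Ppp1r15b, Chac1, Cth, Pck2 and Vldlr. Without knockdown replicate 3 none of the 32 genes passed, where 1.45% of all genes did, and the smallest adjusted p was 0.0661. With the replicate numbers of the titles as a block 2 members passed, Ppp1r15a higher and Pck2 lower, where 3.08% of all genes passed.

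**Figure D1:**
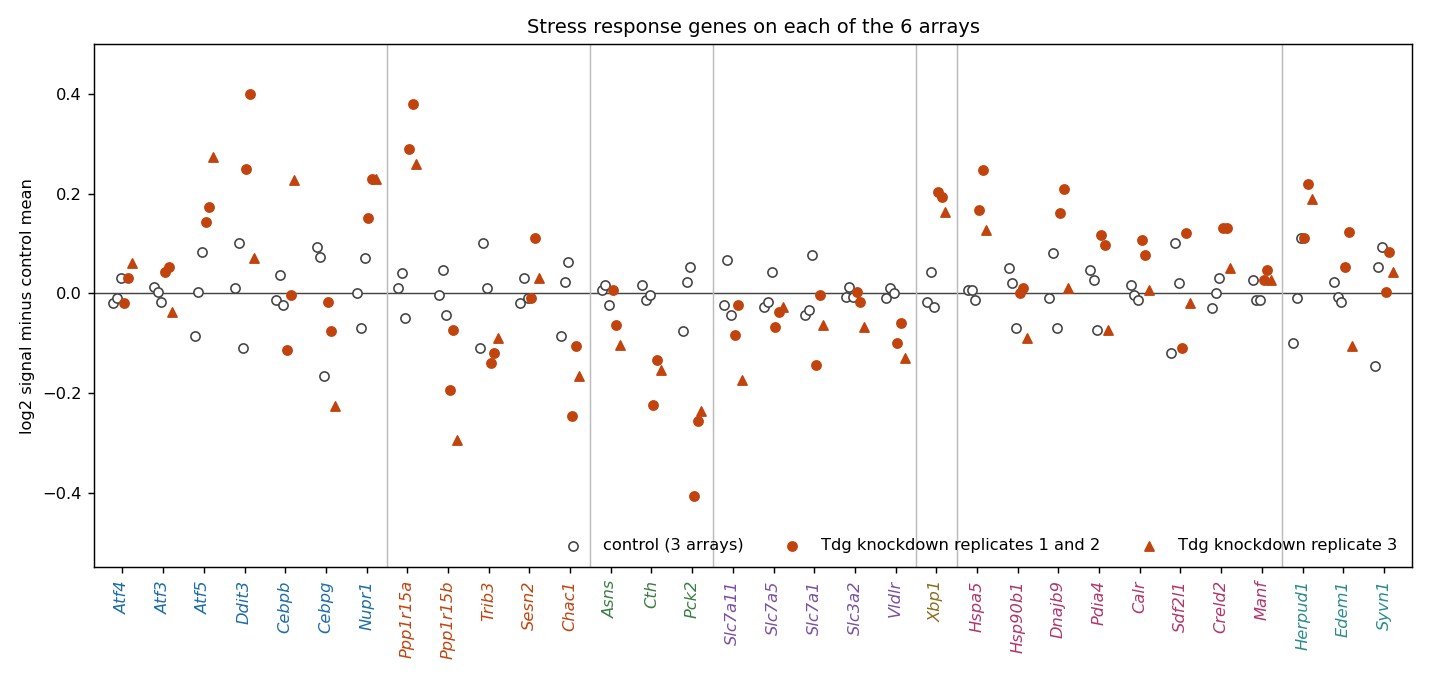
Log2 signal of each of the 32 genes on each array, as the difference from that gene's control mean, with genes ordered by role from left to right and vertical lines between roles. Open circles are control arrays, filled circles knockdown replicates 1 and 2, and triangles knockdown replicate 3. Ppp1r15a, at a mean of 0.31, and Pck2, at -0.30, lie farthest from their controls.

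Both regulatory subunit genes of the phosphatase that reverses eIF2 phosphorylation were measured. In the rows used they lay on opposite sides of their controls, which for Ppp1r15b depends on the row, as given below. Ppp1r15a encodes GADD34, the stress-induced regulatory subunit that brings protein phosphatase 1 to eIF2 and so restores translation. Its log2 signal was 8.86, 8.89 and 8.80 in the controls and 9.14, 9.23 and 9.11 in knockdown. Every knockdown array was above every control, and the lowest knockdown array exceeded the highest control by more than the whole spread of the controls. The difference was 0.31 (SE 0.06, 95% interval 0.16 to 0.46), with a limma adjusted p of 0.093, or 0.0423 with the replicate block. Over 15 fits it ran from 0.28 to 0.35 and its adjusted p from 0.0139 to 0.370, under 0.05 in 4 of them.

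Ppp1r15b encodes CReP, the constitutive counterpart of GADD34. Its log2 signal was 10.03, 10.08 and 9.99 in controls and 9.84, 9.96 and 9.74 in knockdown. The groups did not overlap, but the gap between them was narrower than the spread within knockdown. The difference was -0.19 (SE 0.08, limma adjusted p 0.374). A dimmer second probe set of the gene showed 0.06 (SE 0.11), and the mean of both rows gave -0.07, so the rows disagree and the size depends on the row used.

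Among the other regulators that dampen or carry out the response, Trib3 (a pseudokinase that holds back ATF4 and CHOP), Sesn2 (a leucine sensor that restrains mTORC1) and Chac1 (an enzyme that degrades glutathione) did not pass. Chac1 was 9.77, 9.88 and 9.92 in controls and 9.61, 9.75 and 9.69 in knockdown, a difference of -0.17 (SE 0.07, limma adjusted p 0.382). Its groups were apart by a narrow margin, less than the spread of either. Trib3 differed by -0.12 (adjusted p 0.605) and Sesn2 by 0.04 (0.835), both with overlapping groups.

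Of the 7 transcription factors none passed, and 6 of the differences were above 0, where 55.4% of all genes lay above 0. Atf4, the central factor of the integrated stress response, was at 9.87, 9.88 and 9.92 in controls and 9.87, 9.92 and 9.95 in knockdown. The difference of 0.02 had a 95% interval of -0.12 to 0.16. Atf3, a stress-induced repressor and early target of ATF4, was as close, with 8.5, 8.49 and 8.47 against 8.53, 8.54 and 8.45 and a difference of 0.02 (interval -0.12 to 0.16). For both genes the groups overlapped, and without knockdown replicate 3 the differences were 0.005 for Atf4 and 0.05 for Atf3.

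The remaining factors spread more widely. Ddit3, which encodes the pro-apoptotic factor CHOP, was 8.32, 8.41 and 8.2 in controls and 8.56, 8.71 and 8.38 in knockdown. Knockdown replicates 1 and 2 lay above all controls and replicate 3 lay among them. The difference was 0.24 (SE 0.10, limma adjusted p 0.394), or 0.33 without knockdown replicate 3 (0.134). Nupr1, a small chromatin-associated stress protein, was 9.20, 9.13 and 9.27 in controls and 9.35, 9.43 and 9.43 in knockdown, a difference of 0.20 (SE 0.07, adjusted p 0.258). Atf5, a factor linked to the mitochondrial stress response, was 7.97, 8.06 and 8.14 in controls and 8.2, 8.23 and 8.33 in knockdown, a difference of 0.20 (SE 0.07, adjusted p 0.323). In both genes the groups were apart, by less than the spread of the controls. Cebpb and Cebpg, bZIP partners of ATF4, differed by 0.04 and -0.11 with overlapping groups (adjusted p 0.909 and 0.737), and for Cebpb the sign turned without knockdown replicate 3, to -0.06. Cebpg moved to -0.05 without that array and to -0.19 without control replicate 3.

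**Figure D2:**
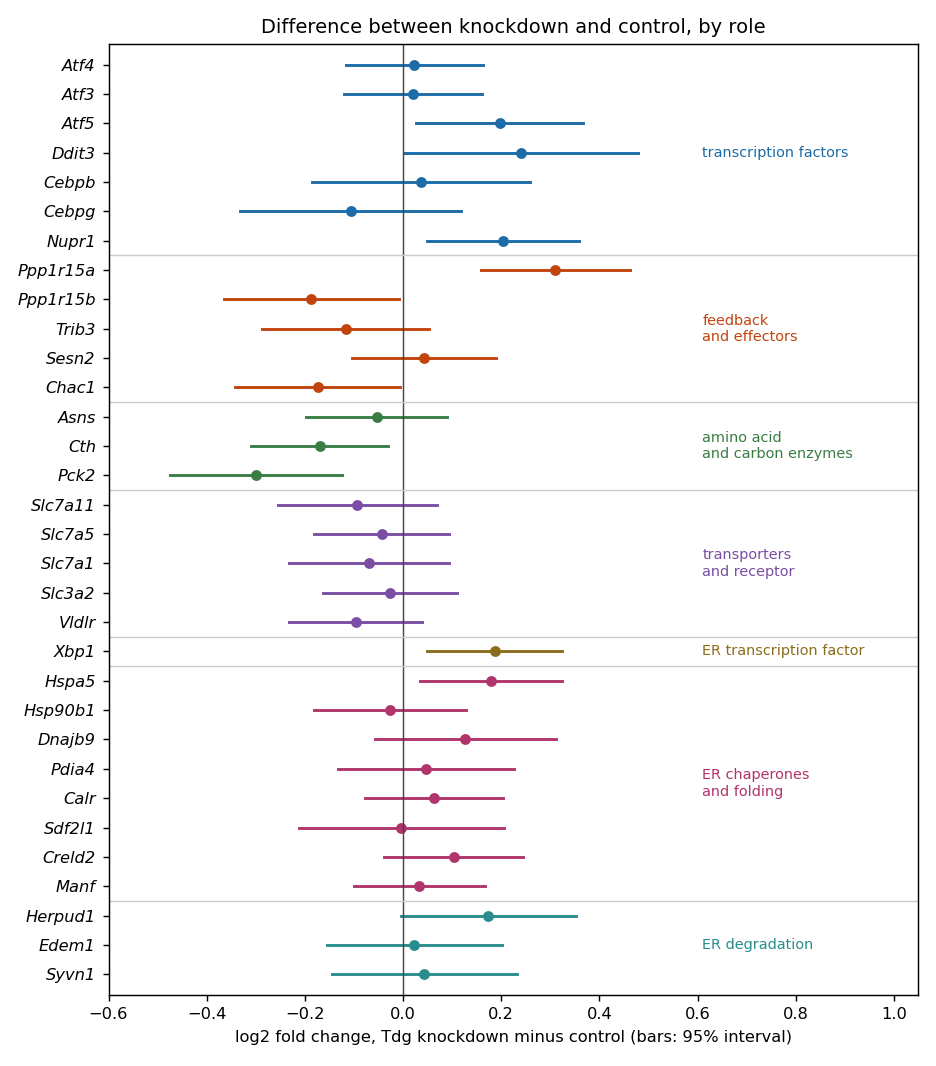
Log2 fold change of each gene, knockdown minus control (points), with its 95% interval from limma (bars), 3 arrays a group, ordered and coloured by role. The intervals of 22 genes include 0, those of 6 lie above it and those of 4 below it, before any adjustment for the number of genes tested.

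The role group of 3 enzymes and that of 4 transporter subunits and 1 receptor are read together here. Most are genes of amino acid supply and linked metabolism, while the receptor, Vldlr, binds lipoproteins. The comparison was planned with these groups apart, so their joining is a description only. These 8 genes all had lower means in knockdown. None passed the threshold, and 43.5% of all named genes lay below 0. That share counts bright and dim genes alike. Without the dimmest genes by mean, the median of all named genes was -0.01 instead of 0.02. The median of the 8 was -0.08, with -0.17 for the enzymes and -0.07 for the transporters and receptor. Over all 20 genes of the integrated stress response the median was -0.05, with 12 below 0 and 8 above. All measured genes of the 8 stayed below 0 in all 14 alternative fits, with medians from -0.11 to -0.06. Because these alternatives reuse the same 6 arrays, that is no independent support. The median of their differences from the control mean was -0.09, -0.05 and -0.12 on the 3 knockdown arrays, against -0.02, 0.01 and -0.00 on the controls.

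Pck2, the mitochondrial enzyme that makes phosphoenolpyruvate, differed most. It was 9.64, 9.74 and 9.77 in controls and 9.31, 9.46 and 9.48 in knockdown. The groups did not overlap, and the gap between them was larger than the spread of the controls. The difference was -0.30 (SE 0.07, 95% interval -0.47 to -0.13), with a limma adjusted p of 0.138, or 0.0452 with the replicate block. Over 15 fits it ran from -0.37 to -0.25 and its adjusted p from 0.00995 to 0.517, under 0.05 in 2 of them.

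Cth, the enzyme that makes cysteine from cystathionine, was 11.36, 11.33 and 11.34 in controls and 11.12, 11.21 and 11.19 in knockdown. Its controls were tight and all knockdown arrays lay below them. The difference was -0.17 (SE 0.06, limma adjusted p 0.294). Over 15 fits its adjusted p ran from 0.0492, with array weights, to 0.720.

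Asns, which makes asparagine and is among the best known targets of ATF4, was 13.02, 13.03 and 12.99 in controls and 13.02, 12.95 and 12.91 in knockdown. The groups overlapped and the difference of -0.05 had an interval from -0.20 to 0.09, and it was -0.03 without knockdown replicate 3. The transporter genes were as near to their controls. Slc7a5 and Slc3a2, the light and heavy chain of the large neutral amino acid exchanger, differed by -0.04 and -0.03, the cationic transporter Slc7a1 by -0.07, and the cystine transporter Slc7a11 by -0.09. Without knockdown replicate 3 Slc3a2 differed by -0.01 and Slc7a11 by -0.05. Slc7a11 had a dim probe set, with 5.46 to 5.70 over the 6 arrays against array medians of 7.41 to 7.48. Vldlr, a lipoprotein receptor induced by ATF4, was 7.51, 7.53 and 7.52 in controls and 7.42, 7.46 and 7.39 in knockdown. Its groups were apart, though the difference of -0.10 did not pass (SE 0.06, limma adjusted p 0.582).

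Of the 12 genes of the ER branch, 10 had differences above 0, against 55.4% of all named genes, with a median of 0.06 and none past the threshold. Over 15 fits that median stayed between 0.04 and 0.10, which is no independent support because the fits reuse the same arrays. Knockdown replicate 3 was the nearest of the knockdown arrays to the controls: the median difference from the control mean was 0.11 and 0.12 on knockdown replicates 1 and 2, and 0.02 on replicate 3. Without that array all 12 lay above 0, with a median of 0.10 and still none past the threshold. Of the 19938 named genes, 9615 lay above 0 without it. For the 3 genes of ER degradation the median moved from 0.04 to 0.09.

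Xbp1 and Hspa5 were the clearest of the 12. Xbp1 encodes the factor whose spliced form drives the ER branch, and it was 11.84, 11.90 and 11.83 in controls and 12.06, 12.05 and 12.02 in knockdown. The lowest knockdown array lay above the highest control by more than the spread of either group. The difference was 0.19 (SE 0.06, 95% interval 0.05 to 0.32, limma adjusted p 0.236). Hspa5, the gene of the main ER chaperone BiP, was 12.26, 12.26 and 12.24 in controls and 12.42, 12.50 and 12.38 in knockdown. Its controls were tight and knockdown was above them throughout, with a difference of 0.18 (SE 0.06, interval 0.04 to 0.32, adjusted p 0.283). With a trended and robust prior both passed, at limma adjusted p of 0.0388 and 0.0490, while over 15 fits the adjusted p of Xbp1 reached 0.598 and that of Hspa5 0.715.

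Herpud1, an ER membrane protein that helps degrade misfolded proteins, was 9.56, 9.65 and 9.77 in controls and 9.77, 9.88 and 9.85 in knockdown. The highest control equalled the lowest knockdown array, and the difference was 0.17 (SE 0.08, limma adjusted p 0.417). Dnajb9, the co-chaperone ERdj4, was 10.08, 10.17 and 10.02 in controls and 10.25, 10.30 and 10.10 in knockdown, where replicate 3 lay among the controls. It differed by 0.13 (adjusted p 0.603). Creld2, a secreted ER stress protein, differed by 0.10, from 11.33, 11.36 and 11.39 to 11.49, 11.49 and 11.41 (adjusted p 0.572), with groups just apart.

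The other ER members lay close to their controls. Differences were 0.06 for the lectin chaperone Calr, 0.05 for the disulfide isomerase Pdia4, 0.03 for the trophic factor Manf, 0.04 for the ubiquitin ligase gene Syvn1, 0.02 for the mannosidase-like Edem1 and -0.00 for Sdf2l1, a partner of BiP. Without knockdown replicate 3 they were 0.11 for Pdia4, 0.09 for Edem1 and 0.005 for Sdf2l1. Hsp90b1, the ER member of the HSP90 family, was 12.51, 12.48 and 12.39 in controls and 12.46, 12.47 and 12.37 in knockdown, a difference of -0.03 (95% interval -0.18 to 0.13), or 0.005 without knockdown replicate 3. Its promoter holds 2 ERSE copies within the window. The 5 genes with an ERSE match thus had differences of 0.18 (Hspa5), 0.10 (Creld2), 0.06 (Calr), 0.04 (Syvn1) and -0.03 (Hsp90b1). Xbp1 and Herpud1 had differences of 0.19 and 0.17 and no exact ERSE match in their windows. Among the members with a CARE match the differences ran from -0.30 for Pck2 to 0.20 for Nupr1, with Asns at -0.05 and Chac1 at -0.17.

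Of 73 further genes of both pathways, 68 were measured, and none passed the threshold in limma. Their median was -0.02, or 0.005 without knockdown replicate 3, where 36 lay above 0 and 32 below. At an unadjusted p under 0.05 there were 8, of which 3 were higher and 5 lower, or 11.8% against 12.5% of all named genes, a share near the background. With the replicate block 1 of the 68 passed, where 3.08% of all named genes did. That gene was Slc1a4, a neutral amino acid transporter that ATF4 is known to raise. It was 10.49, 10.47 and 10.46 in controls and 10.08, 10.17 and 10.06 in knockdown. The groups lay apart by far more than either one's spread, and the difference was -0.37 (SE 0.06, 95% interval -0.51 to -0.23), with a limma adjusted p of 0.0527, or 0.0355 with the block. Its adjusted p ran from 0.00461 to 0.305 over 15 fits and was under 0.05 in 5, so the call depends on the fit, while the difference stayed between -0.40 and -0.35.

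The other ATF4 targets outside the 32 genes had lower means in 10 of 12 cases, where 43.5% of all named genes lay below 0. Their median was -0.14, or -0.08 without knockdown replicate 3, where 10 of 12 were again below 0. Without that array 10207 of the 19938 named genes lay below 0. Slc6a9, a glycine transporter, was at -0.25 (SE 0.07, limma adjusted p 0.18) and is named after its value was seen. The 8 measured genes of serine and proline synthesis had a median of -0.02, with Phgdh, the first enzyme of serine synthesis, at -0.22 (SE 0.09, adjusted p 0.364) and Psph, the last, at -0.07 (0.705). Without knockdown replicate 3 the median of this list was -0.01, as was that of the synthetase genes described next. For the 11 measured tRNA synthetase genes, many of them ATF4 targets, the median was -0.02 and the range -0.12 to 0.10, with Mars1 (0.521) and Tars (0.651) the smallest in adjusted p.

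The sensors and eIF2 factors had a median of -0.02 over 13 measured genes, or 0.01 without knockdown replicate 3. The 2 smallest p were those of Eif2b4 at 0.18 (SE 0.08, limma adjusted p 0.42) and Eif2b1 at 0.14 (0.435), both subunits of the exchange factor eIF2B. The ER sensor genes Ern1 and Atf6 differed by -0.14 and -0.02, and Eif2ak3, the gene of PERK, by -0.08, none past the threshold. These 3 values rest on knockdown replicate 3, without which they were -0.03, 0.075 and -0.00. Among 24 further genes of ER folding and degradation the median was 0.01 and 13 lay above 0, where 55.4% of all named genes did. Without knockdown replicate 3 the median was 0.045 and 17 lay above 0, where 9615 of the 19938 named genes did. The smallest p were those of Sec24d, a coat protein of vesicles that leave the ER, at 0.26 (SE 0.08, adjusted p 0.244), and of P4hb, a protein disulfide isomerase, at 0.17 (0.262). P4hb was 11.78, 11.78 and 11.77 in controls and 11.92, 11.98 and 11.95 in knockdown, so its groups were well apart.

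**Figure D3:**
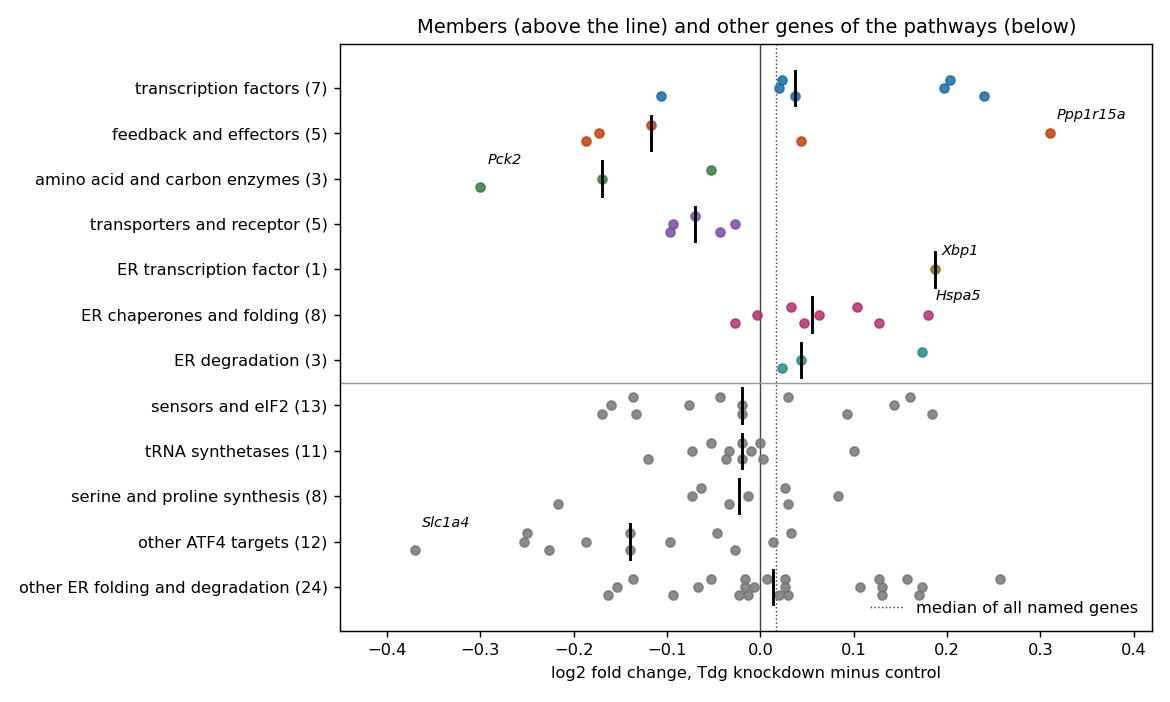
Log2 fold changes, knockdown minus control, of the 32 genes by role (coloured, above the line) and of 68 other genes of both pathways (grey, below the line), with the number of genes in brackets. Each point is 1 gene, vertical bars are medians of the groups, and the dotted line is the median of all named genes, 0.02. The enzymes, transporters and other ATF4 targets lie mostly left of 0, with Slc1a4 at -0.37 farthest out.

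The 11 members with the smallest unadjusted p kept their sign in all 15 fits. The members that turned were Cebpb, Syvn1, Sdf2l1, Edem1 and Hsp90b1, whose differences were at most 0.04 in size. The kept signs are no independent support, because the 11 were picked by p on the arrays that every fit reuses. For most of them the groups did not overlap, so leaving out a single array could not turn the sign. The block, the trended prior, the fit of all rows and that without the dimmest genes do not change a member's difference. Calls were less steady than signs. No member passed when any single array was left out, where 0 to 290 of 19938 named genes did. The highest number passing in 1 fit was 3, with array weights, where 1633 of 19938 named genes passed.

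**Figure D4:**
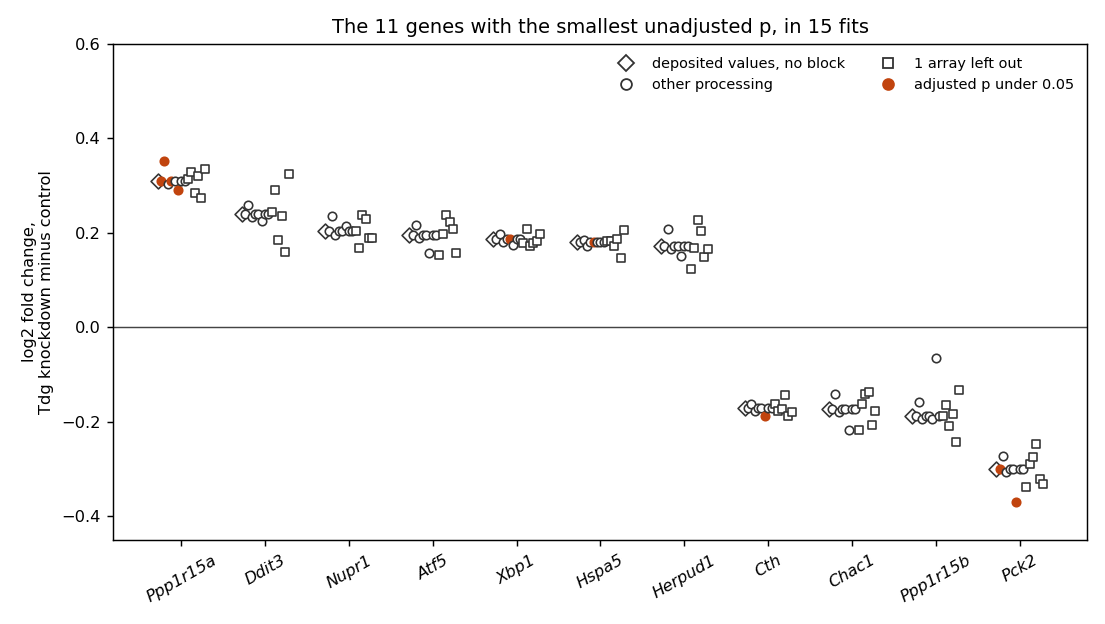
Log2 fold change, knockdown minus control, of the 11 members with the smallest unadjusted p in 15 fits: deposited values without a block (diamonds), other processing (circles) and 1 array left out (squares). Filled symbols mark an adjusted p under 0.05, which occurred for Ppp1r15a in 4 fits, for Pck2 in 2, and for Xbp1, Hspa5 and Cth in 1 each.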

How the data were processed

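The authors deposited log2 signals, 1 per probe set and array (2.26 to 14.03), and the submitters' processing notes name Affymetrix Expression Console. The sources used here do not give its version, the summarisation, the normalization between arrays or the genome build. The log2 scale was read from the range of values. No further normalization was applied. Of 35557 rows, 21789 list 1 gene in the platform annotation, 1621 several and 12147 none, and only the first were named (of these rows, 21698 had an entry in RefSeq's GRCm38.p6 gene table). The row with the highest mean was taken per gene.

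Knockdown was compared with control in limma 3.58.1 under R 4.3.3 (lmFit, eBayes, two-sided), with Benjamini-Hochberg adjustment over all 19938 named genes. The procedure was tested on simulated data. The members, role groups and pathway lists were chosen with earlier results of these data known, so no p is given over a list. The text names all 32 members, Tdg, Kdm2b, and from each pathway list the genes past the threshold with or without the block or else the 2 with the smallest p. Ern1, Atf6, Eif2ak3, Slc6a9 and the markers were named after their values were seen.

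Arrays with the same replicate number deviated together from their group means (correlations of 0.61, 0.23 and 0.70 across genes). All exceeded 0.1, so a fit with the numbers as a block was run beside the main fit, although what they share is not labelled. The main fit has no block, and its SE, intervals and adjusted p do not use the pairing. Values with the block are named as such. The number of arrays limits the precision. Promoter windows came from RefSeq. Of the pathway genes, 5 had no single-gene row and were left out.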

Additional observations from a re-analysis of the deposited data

How the results depend on the processing

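With 3 arrays a group, differences of the size seen here lie near the limit of what can be called. The count of members past the threshold was 0 with the deposited values, and it was 2 with the replicate block (Ppp1r15a and Pck2), 1 with quantile normalization and 1 without the dimmest genes by mean (Ppp1r15a in both), 2 with a trended and robust prior (Xbp1 and Hspa5) and 3 with array weights (Ppp1r15a, Pck2 and Cth). It stayed at 0 with arrays centred on their medians, with the mean of a gene's rows, with all rows tested and without any 1 array. The other pathway genes went from 0 to 1 with the block, 1 with quantile normalization, 1 without the dimmest genes, 2 with the trended prior and 6 with array weights, and to 0 without any 1 array. Over all 19938 named genes 158 passed (0.792%). There were 614 with the block (3.08%), 197 with quantile normalization, 118 with arrays centred on their medians and 157 with the mean of a gene's rows. Without the dimmest genes 444 of 13289 passed, with the trended prior 446 and with array weights 1633. With all rows tested 12 passed, and without 1 array 0 to 290. These counts are the background for those of the 32 members and the 68 other pathway genes. The fit of all rows covered 35557 rows, and the cause of these moves, this one included, was not tested. Array weights were fitted gene by gene, since the default method did not converge. Slc7a11 was left out with the dimmest genes. The block changed no other member's call. Tdg stayed past the threshold and the median of the members stayed between 0.00 and 0.05 in all 15 fits. Of 447 values of single members under alternatives, 438 kept their side of the threshold and 9 passed it. Signal over background was not analysed here.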

Other observations

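In the marker lists, 3 genes passed the threshold with the replicate block and not without it, where 3.08% of all named genes passed with the block. Krt8 and Krt18, keratins of simple epithelia, were both lower in knockdown. Krt8 was 11.31, 11.34 and 11.56 in controls and 10.91, 11.02 and 11.15 in knockdown. Krt18 was 10.95, 10.93 and 11 in controls and 10.57, 10.68 and 10.66 in knockdown. The differences were -0.38 (SE 0.10) and -0.32 (SE 0.06), with limma adjusted p of 0.15 and 0.0815. Lamb1, a laminin chain of basement membranes, was 10.52, 10.44 and 10.45 against 10.12, 10.21 and 10.05, a difference of -0.34 (SE 0.07, adjusted p 0.0842). In each the groups did not overlap, and these genes were named after their values were seen. Knockdown was instead the higher group, also without overlap, for Hand1 of the trophoblast list (0.32, SE 0.11) and Foxa2 of the endoderm list (0.15, SE 0.07).

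The second probe set of Pdia4, used only in the fits of all rows and of the mean of a gene's rows, was 7.78, 7.56 and 7.64 in controls and 7.89, 7.56 and 7.68 in knockdown, a difference of 0.05 (SE 0.11), as in the brighter row. That of Ppp1r15b was 7.59, 7.77 and 7.86 against 7.65, 7.82 and 7.92, where the brighter row had -0.19.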
